A study of Mus musculus with 6 samples.

Results

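The actins and alpha-actinins build and anchor the thin filaments of the heart, and 9 of their genes were read from a table of 54532 genes by gene symbol: the actins Acta1, Actc1, Acta2, Actg2, Actb and Actg1, and the alpha-actinins Actn1, Actn2 and Actn4. All 9 were found once each and all 9 were expressed highly enough to be tested. The table holds RNA-seq of hearts from mice aged 4 days, with 3 libraries labelled Wtapflox/flox (Wtap-flox below) and 3 labelled Wtap-CKO, a conditional knockout of Wtap. The Wtap-flox hearts carry the floxed allele. The labels give no further genotype for either group. The Cre driver, the deleted exons, the strain and sex of the mice, and whether a library is 1 heart or a pool are facts not given in the sources used here. WTAP is a regulatory subunit of the complex that writes N6-methyladenosine on messenger RNA. The submitters call the libraries of a group independent biological replicates.

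Actin polymerises into filaments, and in striated muscle these filaments slide along myosin to produce force. The sarcomeric isoforms are encoded by Actc1, the cardiac alpha-actin, and Acta1, the skeletal alpha-actin, which the developing and the stressed rodent heart also express. Acta2 and Actg2 encode the smooth muscle actins, and immature cardiomyocytes can express Acta2 as well. Actb and Actg1 encode the cytoplasmic actins of every cell. Alpha-actinins crosslink actin filaments: Actn2 does so in the Z-disc of the sarcomere, while Actn1 and Actn4 act at cell adhesions and along stress fibres. Many actin genes are switched on by serum response factor (SRF), which binds a DNA element called the CArG box, and by its cofactors of the myocardin family, whose activity rises when free actin monomers are used up.

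The sequences just upstream of 4 actin genes are shown because the CArG box is the element these genes share. They come from RefSeq on GRCm38.p6, are written 5′ to 3′ on the gene's minus strand, and have CArG boxes, exact or with 1 mismatch, in capitals. Positions are counted back from the RefSeq start of the gene. Actc1 is limited to the bases around its exact box, because its window lies inside the gene as annotated in the deposited table.
Acta1 (chr8:123894776-123894895): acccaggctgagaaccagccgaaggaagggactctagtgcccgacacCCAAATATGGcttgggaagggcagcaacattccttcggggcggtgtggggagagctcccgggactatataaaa
Actc1 (chr2:114052903-114052932): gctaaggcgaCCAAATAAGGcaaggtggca
Acta2 (chr19:34255374-34255493): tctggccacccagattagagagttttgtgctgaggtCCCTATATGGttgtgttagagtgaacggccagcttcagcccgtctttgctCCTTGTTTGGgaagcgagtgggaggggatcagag
Actg1 (chr11:120348543-120348615): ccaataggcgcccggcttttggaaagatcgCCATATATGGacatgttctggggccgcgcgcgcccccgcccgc

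An exact CArG box stood at -73 in Acta1, at -47 in Actc1 and at -90 in Actg1. Among all 32851 RefSeq windows of 250 bases upstream of a start, 1.47% held an exact box, searched on both strands. Acta2 had no exact box in its 250 bases and held boxes with 1 mismatch at -84 and -34. Such boxes also stood at -205 and -154 in Acta1 and at -175, -138 and -87 in Actc1. Windows holding a box with up to 1 mismatch made up 18.6% of all windows. The windows of Actn1, Actn2 and Actn4 held neither form, and those of Actb and Actg2 were not used here. A match is a description of the letters and not of binding. The window of Acta1 also held TATAAA at -7 and, on the other strand, GGAATG at -46. GGAATG stood as well at -146 in Acta2 and, on the other strand, at -216 in Actn4. On either strand TATAAA occurred in 12.4% and GGAATG in 12.6% of all windows.

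Libraries held between 15649028 and 18045599 counted reads or read pairs, recovered from FPKM, which scales reads by the length of the gene and the size of the library. The first principal component carried 52.6% of the variance and separated the groups, and the second carried 20.4% and placed Wtap-CKO 3 away from Wtap-CKO 1 and Wtap-CKO 2. Reads over the whole Wtap gene gave 7.77 to 10.9 FPKM in Wtap-flox and 7.75 to 9.46 in Wtap-CKO (log2 fold change -0.04, adjusted p = 0.893, limma), with overlapping groups. Since the deleted exons are not given, this value does not check the labels, and every direction below rests on them. Its sign turned without Wtap-flox 3 or Wtap-CKO 2 and with array weights. All 8 cardiomyocyte markers were abundant, with a summed level of 10281 to 11962 FPKM in Wtap-flox and 9243 to 13695 in Wtap-CKO.

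Of the 9 members, 3 rose in Wtap-CKO (Acta1, Actn1 and Actg2) and 0 fell at an adjusted p below 0.05, from a limma fit of log2(FPKM + 1) over 12568 genes. Over all tested genes 9.91% rose and 6.69% fell by the same rule, 16.6% in all. With upper-quartile scaling 45.4% of all changed genes were higher, with a fixed total per library (TPM) 33.1% and with a total without mitochondrially encoded genes 32.5%, against 59.7% as deposited. The median log2 fold change of the members was 0.42, against 0.00 over all tested genes. In 5 members (Acta1, Actc1, Actg2, Actb and Actn1) every Wtap-CKO library lay above every Wtap-flox library, and in 0 every one lay below. Of all tested genes 37.1% had groups apart, 19.8% with Wtap-CKO higher and 17.3% with it lower. In the other 4 members the groups overlapped. Whether groups lay apart was read from FPKM as deposited. The summed FPKM of a library was itself higher in Wtap-CKO, at 357870 to 388328 against 315632 to 339917 in Wtap-flox. Fixed totals with or without mitochondrially encoded genes shifted the median of all genes by -0.14 and -0.15, while as deposited the median gene had 0.00, so the changes given are relative to it. In bulk RNA from hearts, a change in the number of cells of a type and a change in RNA per cell cannot be told apart.

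**Figure D1:**
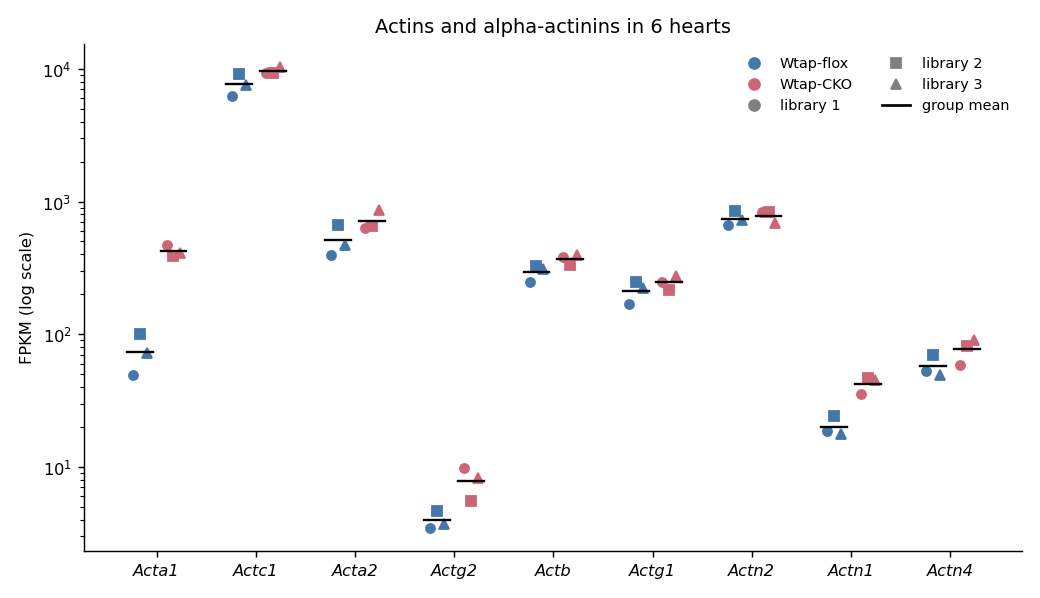
FPKM of the 9 members on a log axis, with 1 point per library (colour for the group, shape for the library number) and a bar at each group mean. Acta1 stands between 49.2 and 100.3 FPKM in Wtap-flox and between 386 and 471 in Wtap-CKO, while Actn2 overlaps between the groups.

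Skeletal alpha-actin showed the largest change of the family. Acta1 (ENSMUSG00000031972, chromosome 8, 123891769 to 123894751, minus strand, coordinates as in the file, on GRCm38) stood at 49.2, 100.3 and 71.5 FPKM in Wtap-flox 1 to 3. In Wtap-CKO 1 to 3 it stood at 471, 386 and 408 FPKM. The lowest Wtap-CKO library was thus far above the highest Wtap-flox library, and the Wtap-flox libraries varied more among themselves, relative to their mean, than the Wtap-CKO libraries did. Means were 73.7 ± 25.6 and 421 ± 44.0 FPKM (SD, n = 3), a ratio of 5.72. Its log2 fold change came to 2.55 (95% interval 1.998 to 3.11), at a limma adjusted p = 0.000732. By log2 fold change Acta1 ranked 7 of 12568 from the top. That fold change lay between 2.30 and 2.80 over all alternatives and passed the threshold in each of them. At least 1316 reads stood behind each value, so counting error was at most 2.76% of a value.

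Beside Acta1, defining transcripts of skeletal muscle were at or near 0. Of 11 skeletal muscle markers 0 averaged 1 FPKM or more across all 6 libraries (Mylpf averaged 1.06 in Wtap-CKO), and Myod1, Myf6, Pax7 and Myh4 were at 0 in all 6 libraries. Their summed level was 2.12 to 3.01 FPKM in Wtap-flox and 2.36 to 3.21 in Wtap-CKO. The predicted gene Gm20388 spans the Acta1 locus on the opposite strand and was listed at 0 in every library. Of the 150-base windows of the Acta1 transcript, 0 were identical to a window of another annotated gene.

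Cardiac alpha-actin, the dominant isoform, did not pass the test. Actc1 (ENSMUSG00000068614, chromosome 2, 114047282 to 114053548, minus strand) stood at 6218, 9182 and 7501 FPKM in Wtap-flox and at 9396, 9331 and 10337 FPKM in Wtap-CKO. In FPKM as deposited the groups lay apart, but by a margin of less than their spread. Wtap-flox 2 came close to the lowest Wtap-CKO library. As a percentage of all summed FPKM, Acta1 and Actc1 together stood at 2.78 in Wtap-flox 2 and at 2.70 to 2.77 in Wtap-CKO. On the log2 scale Wtap-CKO exceeded Wtap-flox by 0.36 (95% interval -0.11 to 0.83), at a limma adjusted p = 0.271. With quantile normalization, which keeps only the rank of each gene within its library, the sign turned (-0.13, adjusted p = 0.598). Actc1 ranked 4 among all genes by level in both groups.

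Since both isoforms are read in the same library, their ratio does not depend on how libraries were scaled. Acta1 was present at 1 part to 107 parts of Actc1 in Wtap-flox and at 1 part to 23.0 in Wtap-CKO, from the mean log2 ratio of FPKM. That log2 ratio was -6.98, -6.52 and -6.71 in Wtap-flox and -4.32, -4.60 and -4.66 in Wtap-CKO. All 3 Wtap-CKO libraries lay well above all 3 Wtap-flox libraries. The difference was 2.21 (exact two-sided permutation test, p = 0.1, the smallest that 3 against 3 allows; adjusted p = 0.178 over 16 shares and ratios), a 4.63-fold change of the ratio. It lay between 2.09 and 2.32 when 1 library was left out. The parts rest on the gene lengths used for FPKM, 1536 bases for Acta1 and 1618 for Actc1. The difference between groups does not depend on these lengths. For Actn1 and Actn2 below, the parts rest on such lengths too.

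Acta1 made up 0.694, 0.953 and 0.835% of the summed FPKM of the 6 actins in Wtap-flox and 4.23, 3.53 and 3.32% in Wtap-CKO. The share of Actc1 went the other way, from 87.5 ± 0.262% to 84.6 ± 0.694% (SD, n = 3). Neither share overlapped between groups (exact two-sided permutation p = 0.1 each, adjusted p = 0.178). In FPKM as deposited, the group means of the summed actins were 8725 and 11452, a difference of 2727. Of this Actc1, which did not pass the test, held 2054 and Acta1 held 348. As a percentage of all summed FPKM the actins stood at 2.64 ± 0.466 in Wtap-flox and 3.09 ± 0.0645 in Wtap-CKO (exact two-sided permutation p = 0.3), and Wtap-flox 2 at 3.15 lay within the range of Wtap-CKO.

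**Figure D2:**
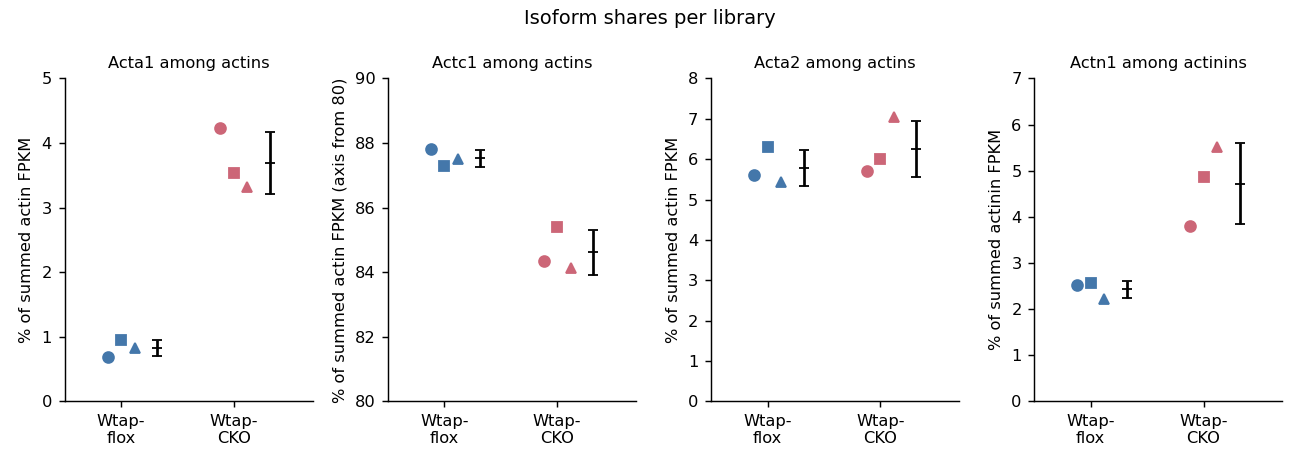
Shares per library as percent of the summed FPKM of the 6 actins (first 3 panels) or of the 3 alpha-actinins (last panel), with points for libraries and a bar for the mean ± SD of 3. Acta1 and Actn1 take larger shares in all Wtap-CKO libraries, Actc1 a smaller one (its axis starts at 80%), and Acta2 overlaps.

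The smooth muscle actins were both higher in mean, and the rarer of them passed the test. Acta2 (ENSMUSG00000035783, chromosome 19, 34241090 to 34255336, minus strand) stood at 397, 663 and 467 FPKM in Wtap-flox and at 637, 656 and 865 FPKM in Wtap-CKO. Wtap-flox 2 lay inside the Wtap-CKO range, and Wtap-CKO 3 was the highest library. The fitted log2 change was 0.52 (95% interval -0.00 to 1.04), at a limma adjusted p = 0.16. Its share among the actins was 5.78 ± 0.455% and 6.25 ± 0.694% (exact two-sided permutation p = 0.5).

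Actg2 (ENSMUSG00000059430, chromosome 6, 83512905 to 83536265, minus strand), the enteric smooth muscle actin, was the least abundant member. It stood at 3.46, 4.65 and 3.73 FPKM in Wtap-flox and at 9.74, 5.53 and 8.23 FPKM in Wtap-CKO. All Wtap-CKO values lay above all Wtap-flox values, with Wtap-CKO 2 the closest to them. Means were 3.95 ± 0.620 and 7.84 ± 2.13 FPKM (SD, n = 3; log2 fold change 0.81, 95% interval 0.39 to 1.24, adjusted p = 0.0207, limma). Actg2 missed the threshold without Wtap-flox 1 (adjusted p = 0.0748), Wtap-flox 3 (0.0687), Wtap-CKO 1 (0.0666) or Wtap-CKO 3 (0.0552), and without a filter (0.0774). Only 94 to 245 reads stood behind each value, so counting error alone reached 10.3% in the lowest library.

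Markers of smooth muscle went in both directions beside these genes. Of 7 markers 6 were tested, 4 with a positive log2 fold change, at a median of 0.23. Cnn1 rose (from 4.99 ± 1.52 to 11.9 ± 2.88 FPKM, limma adjusted p = 0.0133) and Smtn fell (from 68.6 ± 8.83 to 45.6 ± 8.35 FPKM, adjusted p = 0.0482). Over all tested genes 9.91% rose and 6.69% fell. Lmod1 (0.42, adjusted p = 0.138), Synpo2 (0.41, adjusted p = 0.186) and Mylk (0.05, adjusted p = 0.816) did not pass. The summed level of all 7 overlapped, at 78.4 to 98.4 FPKM in Wtap-flox and 69.8 to 84.4 in Wtap-CKO. Smtn alone held most of that sum, so its overlap says little about the other markers. Cnn1 missed the threshold without Wtap-flox 3 or Wtap-CKO 1 (adjusted p = 0.0527 and 0.0533). Smtn kept its call when Wtap-CKO 3 was left out, but lost it when any other library was (adjusted p up to 0.168). Myh11, the smooth muscle myosin, ranged from 3.27 to 6.01 FPKM in the first group and from 3.72 to 4.87 in the second, and the sign of its difference turned without Wtap-flox 2. Acta2 exceeded Myh11 by a mean log2 ratio of 6.69 ± 0.525 in the Wtap-flox libraries and 7.33 ± 0.195 in the Wtap-CKO libraries (SD, n = 3; exact two-sided permutation p = 0.2). Tagln, another smooth muscle marker, was between 0.375 and 1.43 FPKM. Its locus overlaps Pcsk7 (5.87 to 7.74 FPKM) and Gm48529 (0.347 to 0.962 FPKM), both on the opposite strand. Whether they took reads of Tagln was not tested. What part smooth muscle cells had in the values of Acta2 and Actg2 was not tested.

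Cytoplasmic actins did not pass the test. Actb (ENSMUSG00000029580, chromosome 5, 142903115 to 142906754, minus strand), often used as a reference gene, stood at 247, 324 and 308 FPKM in Wtap-flox and at 379, 331 and 397 FPKM in Wtap-CKO. In FPKM as deposited the groups lay apart by a narrow margin between Wtap-flox 2 and Wtap-CKO 2. This gave a log2 fold change of 0.34 (95% interval -0.05 to 0.73), at a limma adjusted p = 0.219.

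Actg1 (ENSMUSG00000062825, chromosome 11, 120345690 to 120348542, minus strand) stood at 168, 247 and 221 FPKM in Wtap-flox and at 249, 215 and 275 FPKM in Wtap-CKO, with overlapping groups. As a log2 fold change this was 0.23 (95% interval -0.20 to 0.66), at a limma adjusted p = 0.46. Its level is uncertain, because 67.7% of the 150-base windows of its transcript also occur in other annotated genes, such as the pseudogenes Gm12715 and Gm8399. No other member shared any such window. In the file Gm12715 stood at 4.37 to 10.9 FPKM and Gm8399 at 1.39 to 2.53 FPKM, far below Actg1. How multiply aligned reads were counted is not given in the sources used here.

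Within libraries, the balance of the cytoplasmic isoforms and their weight against the sarcomeric ones overlapped between groups. Between Actb and Actg1 the log2 ratio was 0.47 ± 0.08 in the Wtap-flox libraries and 0.59 ± 0.05 in the Wtap-CKO libraries (SD, n = 3; exact two-sided permutation p = 0.2). The log2 ratio of both cytoplasmic to both sarcomeric actins was -3.93 ± 0.09 and -4.04 ± 0.10 (exact two-sided permutation p = 0.3). As a share of the 6 actins, Actg1 stood at 2.43 ± 0.127% in Wtap-flox and 2.15 ± 0.156% in Wtap-CKO. These did not overlap (exact two-sided permutation p = 0.1, adjusted p = 0.178), while the Actb share did (p = 0.4).

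Sarcomeric alpha-actinin showed no difference beyond the spread. Actn2 (ENSMUSG00000052374, chromosome 13, 12269426 to 12340760, minus strand) stood at 664, 846 and 725 FPKM in Wtap-flox and at 835, 829 and 686 FPKM in Wtap-CKO. Values of the groups were interleaved, and the lowest Wtap-CKO value was that of Wtap-CKO 3. In log2 terms the difference was 0.07 (95% interval -0.33 to 0.48), at a limma adjusted p = 0.809, and its sign turned with TPM, upper-quartile, quantile and mitochondria-free scaling and without Wtap-flox 1. Actc1 against Actn2, the main thin filament and Z-disc components, had a log2 ratio of 3.35 ± 0.11 in Wtap-flox and 3.63 ± 0.24 in Wtap-CKO, without overlap (SD, n = 3; exact two-sided permutation p = 0.1, adjusted p = 0.178).

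Non-muscle alpha-actinin Actn1 rose. Actn1 (ENSMUSG00000015143, chromosome 12, 80167547 to 80260371, minus strand) stood at 18.5, 24.0 and 17.6 FPKM in Wtap-flox and at 35.2, 46.6 and 45.3 FPKM in Wtap-CKO. Every Wtap-CKO library exceeded every Wtap-flox library, and Wtap-CKO 1 was the lowest of its group. Means were 20.0 ± 3.47 and 42.4 ± 6.21 FPKM (SD, n = 3; log2 fold change 1.05, 95% interval 0.67 to 1.42, adjusted p = 0.0041, limma). The call held under every alternative, with log2 fold changes of 0.80 to 1.18. Against Actn2 in the same library, Actn1 went from 1 part to 37.3 parts to 1 part to 18.6, a log2 difference of 1.01 (exact two-sided permutation p = 0.1, adjusted p = 0.178). It lay between 0.86 and 1.18 when 1 library was left out. The locus overlaps the transcript gene Gm47765 and 2 antisense genes, which reached at most 3.44 FPKM.

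Actn4 (ENSMUSG00000054808, chromosome 7, 28893248 to 28962340, minus strand), the other non-muscle form, stood at 53.0, 69.6 and 48.8 FPKM in Wtap-flox and at 58.5, 82.1 and 90.1 FPKM in Wtap-CKO. Wtap-CKO 1 lay inside the Wtap-flox range. Its log2 fold change came to 0.42 (95% interval -0.04 to 0.87), at a limma adjusted p = 0.196. Actn1 and Actn4 were not tested against each other. Among the 3 alpha-actinins, the Actn2 share of summed FPKM was 90.6 ± 0.846% in Wtap-flox against 86.7 ± 3.19% in Wtap-CKO, and the Actn1 share was 2.43 ± 0.186% against 4.72 ± 0.867% (SD, n = 3; exact two-sided permutation p = 0.1 each, adjusted p = 0.178). The skeletal muscle isoform gene Actn3 stood at 0 to 0.0870 FPKM.

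**Figure D3:**
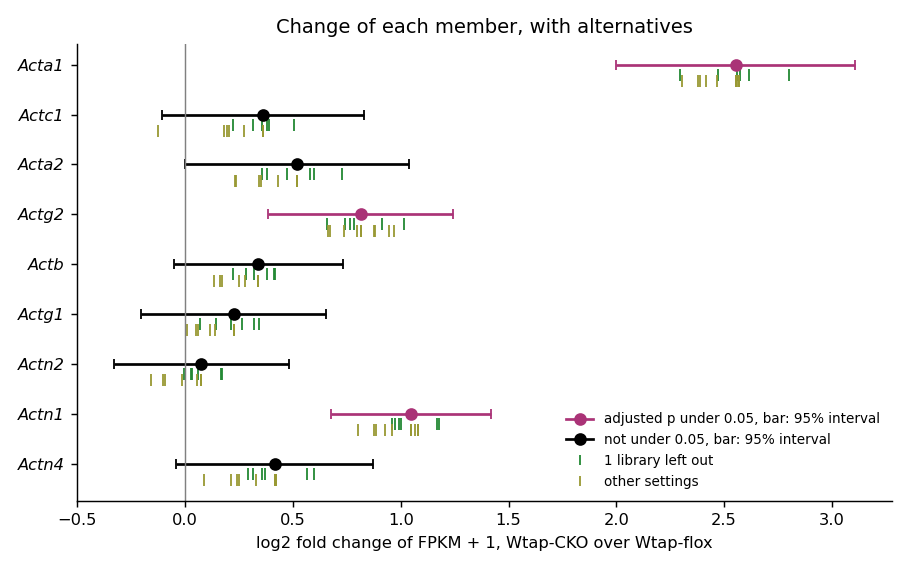
Log2 fold change of FPKM + 1 for each member with its 95% interval, and below it ticks for the fits that left out 1 library and for other settings. Acta1, Actg2 and Actn1 stay above 0 in all of them, Actn2 lies on both sides of 0, and Actc1 falls below 0 with quantile normalization.

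Markers of other cells gave these values beside the non-muscle and cytoplasmic genes. For comparison, 9.91% of all tested genes rose and 6.69% fell. Leukocyte markers had a higher summed level in every Wtap-CKO library, at 33.5 to 39.6 FPKM in Wtap-flox and 49.2 to 99.5 in Wtap-CKO. Lyz2 was the largest part, at 14.2 to 17.9 and 22.1 to 57.8 FPKM, and did not pass (adjusted p = 0.1015, limma). Both the sum and Lyz2 were highest in Wtap-CKO 3. Of the 5 tested 1 rose, the complement gene C1qa (adjusted p = 0.0336, limma). C1qa kept its call only without Wtap-CKO 2 when 1 library was left out (otherwise adjusted p up to 0.109). Of 8 fibroblast markers 0 rose and 2 fell, the matrix genes Lum and Dcn, with sums of 705 to 802 and 530 to 741 FPKM. Dcn lost its call when any library except Wtap-CKO 3 was left out (adjusted p up to 0.124), while Lum kept its own. Of 7 endothelial markers Emcn rose and Kdr fell, with sums of 251 to 280 and 240 to 256 FPKM. Kdr, at an adjusted p = 0.0497, lost its call when any 1 of the 6 libraries was left out (up to 0.161). Their part in the values of Actn1, Actn4, Actb and Actg1 was not tested.

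Per unit of gene length, Actc1 led in both groups, followed by Actn2 and Acta2. In Wtap-flox the order went on with Actb, Actg1, Acta1, Actn4, Actn1 and Actg2. The neighbours Actb and Actg1 overlapped there, as did Acta1 and Actn4. In Wtap-CKO Acta1 stood in front of Actb, though their ranges overlapped, and so did those of Actn2 and Acta2. All other neighbours in either order were apart. By level among all genes Acta1 moved from rank 513 to rank 80.

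Of 10 listed genes for SRF and its cofactors, all tested, 1 rose and 2 fell, with a median log2 fold change of -0.01. The share that rose was near the 9.91% of all tested genes, and 6.69% of all tested genes fell. Abra, an actin-binding activator of this pathway in striated muscle, stood at 2.75, 4.01 and 4.24 FPKM in Wtap-flox and at 20.9, 22.7 and 36.0 in Wtap-CKO, a rise in every library (log2 fold change 2.54, adjusted p = 0.000599, limma). Fhl2, a cofactor with LIM domains, fell from 613 ± 55.4 to 365 ± 8.69 FPKM (adjusted p = 0.014), and Hopx, a homeodomain protein that restrains SRF, fell from 147 ± 19.8 to 81.2 ± 13.5 FPKM (adjusted p = 0.0121). Fhl2 missed the threshold without Wtap-flox 2 (adjusted p = 0.0568), Wtap-flox 3 (0.0686) or Wtap-CKO 1 (0.0725).

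Srf itself stood at 62.9 ± 14.1 and 61.8 ± 10.4 FPKM (SD, n = 3; adjusted p = 0.971, limma), and its sign turned when Wtap-flox 2, Wtap-CKO 1 or Wtap-CKO 3 was left out. Myocardin, Myocd, was at 14.4 ± 5.29 and 26.1 ± 6.40 FPKM (log2 fold change 0.85, adjusted p = 0.0704), with no overlap between groups. Left without Wtap-flox 1, the fit passed it (1.11, adjusted p = 0.0219). The genes of the myocardin-related factors, listed under the older symbols Mkl1 and Mkl2, had log2 fold changes of 0.00 and -0.29 and did not pass, and the sign of Mkl1 turned under 8 alternatives.

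Of 18 genes for proteins that bind alpha-actinin 16 were tested, 7 rose and 1 fell, with a median of 0.44. Over all tested genes 9.91% rose and 6.69% fell, and no test of the list was made. Myoz1, a calsarcin that links alpha-actinin to calcineurin at the Z-disc, rose from 1.21 ± 0.336 to 23.5 ± 3.77 FPKM (SD, n = 3; adjusted p = 2.95e-05, limma). Myoz2, the cardiac calsarcin, rose from 73.2 ± 4.85 to 147 ± 22.9 FPKM, the LIM protein gene Csrp3 from 199.9 ± 15.7 to 439 ± 91.4 FPKM and Pdlim5 from 49.2 ± 6.87 to 88.1 ± 12.3 FPKM. Pdlim3, Pdlim7 and Synpo2l, named here after their values were seen, also rose. Pdlim7 (adjusted p = 0.0482) lost its call when any 1 library was left out (up to 0.146), and with all 4 other scalings. Pdlim3 lost it without Wtap-flox 1, without Wtap-flox 2, without Wtap-CKO 1 (up to 0.0813), and with TPM or mitochondria-free scaling, and Synpo2l without Wtap-flox 3 (0.0596) and with quantile normalization (0.0707). Pdlim4 fell from 3.88 ± 0.215 to 2.40 ± 0.242 FPKM (adjusted p = 0.0164). Leaving out Wtap-flox 2, Wtap-flox 3 or, in turn, Wtap-CKO 1 ended its call (adjusted p up to 0.0697). Across alternatives 4 to 9 of these genes rose and 0 to 2 fell, with 5 higher without any 1 Wtap-flox library or Wtap-CKO 1.

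In the list for thin filament length and capping, which also holds Xirp1 and Xirp2, 3 of 11 tested genes rose and 1 fell. Their median was 0.08. The capping genes Capza1, Capza2, Capzb, Tmod1 and Tmod3 did not pass. Over all tested genes 9.91% rose and 6.69% fell, and no test of the list was made. Xirp2, which binds actin at the intercalated disc, rose from 4.32 ± 0.612 to 32.6 ± 3.16 FPKM (SD, n = 3; adjusted p = 4.4e-05, limma). Lmod2, a leiomodin that lengthens thin filaments, rose from 79.0 ± 3.41 to 122 ± 9.73 FPKM and missed the threshold without Wtap-flox 2 or Wtap-flox 3 (adjusted p = 0.0829 and 0.055) or with quantile (0.0978) or mitochondria-free scaling (0.0502). Xirp1 rose from 61.4 ± 10.8 to 109.9 ± 26.1 FPKM, and lost its call without any 1 of the Wtap-flox libraries, without Wtap-CKO 2 (adjusted p of up to 0.0932) and with TPM, quantile or mitochondria-free scaling (up to 0.138). Nebl, which encodes the nebulin-like protein of cardiac Z-discs, fell from 22.8 ± 2.12 to 13.3 ± 2.48 FPKM, a call lost without a filter on low genes (adjusted p = 0.0512). Without Wtap-flox 2 or Wtap-flox 3, 1 gene of this list rose.

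Of 14 genes for actin monomer binding and filament turnover 2 rose and 0 fell, with a median of 0.27, a share of changed genes near the 16.6% of all tested genes. Scin, a calcium-dependent severing protein, rose from 2.30 ± 0.861 to 5.85 ± 0.383 FPKM (SD, n = 3; adjusted p = 0.00468, limma). Wdr1, a partner of cofilin, rose from 26.4 ± 5.41 to 39.7 ± 3.06 FPKM (adjusted p = 0.043), but the call was lost when any library except Wtap-CKO 3 was left out (up to 0.118) and under all 4 other scalings. The cofilins Cfl1 (0.50, adjusted p = 0.105) and Cfl2 (0.41, adjusted p = 0.137) did not pass. Cfl1 passed without Wtap-CKO 2 (0.049). Cap2, in the opposite direction, had -0.26.

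Of 21 tested genes for nucleation and elongation 0 rose and 1 fell (9.91% and 6.69% over all tested genes), with a median of 0.15. Wasf1, an activator of the Arp2/3 complex, fell from a mean of 2.01 ± 0.568 FPKM to 0.861 ± 0.179 (SD, n = 3; limma adjusted p = 0.0243). Its call was lost when Wtap-flox 2, Wtap-flox 3, Wtap-CKO 1 or, in turn, Wtap-CKO 3 was left out (up to 0.0805). The Arp2/3 subunit Arpc2 had 0.43 (adjusted p = 0.092), the nucleator Spire1 had 0.37 (adjusted p = 0.076, but 0.0443 with quantile normalization) and the formin Diaph3 had -0.46 (adjusted p = 0.0803), which passed without Wtap-flox 1 (0.0267) and with TPM, upper-quartile or mitochondria-free scaling.

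Among 10 tested genes of the wider actin superfamily 0 rose and 2 fell (9.91% and 6.69% over all tested genes), with a median of -0.01. These were Actr3b, an Arp3 paralogue (-0.46, adjusted p = 0.0217, limma), and Actl6a, an actin-like subunit of chromatin remodellers (-0.46, adjusted p = 0.0404). Actr3b missed the threshold without any 1 of the Wtap-flox libraries or Wtap-CKO 1 (up to 0.0784). Actl6a kept its call only when Wtap-flox 1 or, in turn, Wtap-CKO 3 was the library left out (otherwise up to 0.14). Actr3 had 0.21 (adjusted p = 0.391), which turned to -0.026 with quantile normalization.

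Of 16 genes for actin folding and modification 0 rose and 0 fell (9.91% and 6.69% over all tested genes), with a median of 0.15. The chaperonin subunit gene Cct8 had 0.46 (adjusted p = 0.0632, limma), the prefoldin gene Pfdn1 had 0.60 (adjusted p = 0.0778) and the actin histidine methyltransferase gene Setd3 had 0.25 (adjusted p = 0.179). Pfdn1 passed without Wtap-CKO 2 (0.0325).

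**Figure D4:**
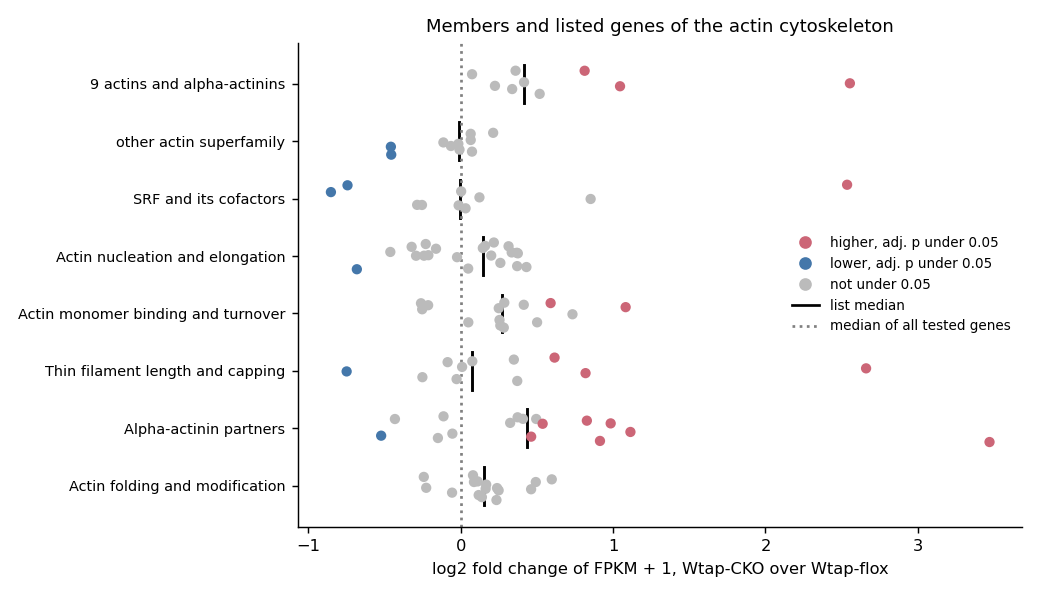
Log2 fold change of FPKM + 1 for the 9 members and for the tested genes of 7 lists, with 1 point per gene, colour for the test, a bar at each list's median and a dotted line at the median of all tested genes. Acta1, Abra, Xirp2 and Myoz1 lie above 2 in their rows.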

How the data were processed

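Polyadenylated RNA of 6 heart samples was sequenced with paired reads of 150 bases, per the labels' protocols. Per the submitters' processing notes, HISAT2 2.0.5 and featureCounts 1.5.0-p3 were among the tools used. The authors deposited FPKM values. How strand and overlaps were treated is not given in the sources used here. Each library had 1 step of which 100% of the products of FPKM and gene length were whole multiples (tolerance 0.01), and this gave the recovered reads. Limma-voom on them called 2537 genes.

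GRCm39 is the build in the notes. Of 20848 protein coding genes, however, 94.7% had a start or end at most 1000 bases from that in GRCm38.p6, and of 19380 compared with GRCm39 3.37% did. The file's coordinates are printed and called GRCm38.

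Tests used limma 3.58.1 (R 4.3.3) on log2(FPKM + 1) of genes averaging 1 FPKM or more, with a variance trend, robust moderation, two-sided p and Benjamini-Hochberg adjustment over all tested genes (threshold 0.05). A fold change on this scale understates that of low genes. The fit was tested on simulated data. P-values measure the spread between these libraries. Shares and ratios were compared by exact permutation. Counting error is 1 over the square root of the reads and leaves out other error.

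Named genes were all members, the SRF list, from each other list up to 4 genes by smallest adjusted p, then the first gene of the opposite direction, not all of which are printed, plus marker genes and the 3 genes most like each member. Members and lists were chosen with earlier results of these data known. Of 108 listed symbols 108 were found, some under older symbols. Of 9 members 7 were in the RefSeq promoter table. Shared windows and coding identity came from GENCODE vM39 transcripts. Other tools were Python 3.11.15, pandas 2.3.3 and matplotlib 3.10.9.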

Additional observations from a re-analysis of the deposited data

How the results depend on the processing

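The calls of Acta1 and Actn1 held under all 20 alternatives, with 2 or 3 members higher and 0 lower in each, and Actg2 was the one lost. Over all genes 2086 changed. That number was 1206 without a filter, 3732 with array weights, and between 1189 and 2016 with 1 library left out (1237, 1189 and 1265 without Wtap-flox 1 to 3, and 1189 without Wtap-CKO 1), where fewer samples remain. Without a filter, Actg2, Actl6a, Wasf1, Wdr1, Nebl, Xirp1, Cnn1, Smtn, Kdr, C1qa, Dcn, Pdlim3, Pdlim7 and Synpo2l lost their calls, at adjusted p of 0.0512 to 0.12. With a mean of at least 0.1 FPKM, Actl6a, Wdr1, Xirp1, Smtn, Kdr, C1qa, Dcn and Pdlim7 did, and without robust moderation Wdr1, Smtn, Kdr and Pdlim7. Pdlim7 also lost its call without a variance trend and with array weights. With array weights Myocd, Spire1, Diaph3, Arpc2, Cfl1, Cct8, Pfdn1 and Setd3 also passed. With limma-voom on recovered reads Myocd, Spire1, Diaph3, Cct8 and Pfdn1 did.

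Signs of log2 fold changes turned as follows, and the cause was not tested. The log2 fold change of Actn2 was -0.092 with TPM, -0.014 with upper-quartile, -0.16 with quantile and -0.10 with mitochondria-free scaling, and -0.0042 to 0.17 with 1 library left out. With these scalings the log2 fold change of Mkl1 was -0.13, -0.070, -0.00130 and -0.14. It was -0.011 with array weights, and -0.0966 to 0.059 with 1 library left out. With quantile normalization the log2 fold change of Actc1 was -0.13 and the log2 fold change of Actr3 was -0.026. The log2 fold change of Wtap was 0.0076 with array weights and -0.13 to 0.086 with 1 library left out. With 1 left out the log2 fold change of Srf was -0.18 to 0.14 and the log2 fold change of Myh11 was -0.34 to 0.020. No share or ratio turned its sign under its 8 alternatives, of which the replicate block could not turn it, since it leaves the difference unchanged.

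Labels do not pair the replicate numbers, and same-numbered libraries did not deviate together (correlations of -0.22, -0.075 and -0.076 across genes). With a replicate block 1673 genes changed, and the same 3 members rose. Of the genes named here, the block left out the calls of Actr3b, Actl6a, Wdr1, Cnn1, Smtn, Kdr and Pdlim7 and added that of Myocd. Counting error is largest for Actg2.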

Other observations

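The profile of each member over the 6 libraries was compared with those of 6853 other protein coding genes that averaged 5 FPKM or more. These correlations of log2(FPKM + 1) are descriptions, since the points share libraries and a group difference, and the highest of so many is high in any case. Closest to Acta1 were Snx21 (r = 0.999), the collagen hydroxylase gene P4ha1 (0.998) and the sphingosine phosphate receptor gene S1pr1 (0.998). Closest to Actn1 were the phosphofructokinase gene Pfkp, the protease gene Adamts1 (0.995) and Rara (0.995). Among the genes close to Actn2 were Bves (0.992) and the glycogen synthase gene Gys1 (0.980), and neither passed the test between groups. Actb ran closest with the tropomyosin gene Tpm4 (0.997), and Actc1 with the mitochondrial ribosomal protein gene Mrpl19 (0.995).

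Among the members themselves, Actc1 ran with Acta2 (r = 0.972 over 6 libraries) and with Actb (0.939), and Actb with Actg1 (0.939). Acta1 ran with Actn1 (0.944), Actg2 (0.914), Actb (0.869) and Actc1 (0.853) more than with Actn2 (0.424). The group difference is part of these correlations too, so they add nothing to the calls. In Wtap-flox 1, the library with the lowest Acta1, the levels of Actc1, Acta2, Actg2, Actb, Actg1 and Actn2 were also the lowest of the 6.

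The actin genes are close relatives in sequence. Their coding regions were between 81.9% and 88.7% identical over the 15 pairs, with Actb and Actg1 the closest pair and Acta1 and Actc1 at 86.2%. The 3 alpha-actinins were 76.5% to 80.4% identical.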
